A study of Mus musculus with 4 samples.

Results

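Embryonic mouse brain with and without conditional ablation of the repressor gene Rest was compared across all genes on an expression microarray. The comparison used 2 of the 4 arrays of the study, the array of conditional knockout (CKO) brain and the array of wild type (WT) brain, chosen by their titles. The other 2 arrays, WT limb and CKO limb, served here as reference levels. All embryos were at E13.5, a stage of active neurogenesis, on a 129 and C57BL/6 background. CKO embryos came from Rest-floxed mice with Cre recombinase switched on in the womb by doxycycline, given from E8.5 to E13.5. The labels record the same doxycycline days for the WT samples. The floxed stretch of Rest, the promoter behind Cre and the number of embryos per sample are not given there. Each group had 1 array, so no difference between genotypes could be tested, and calls rest on size alone. Values are per gene in log2 units, 0 being the 75th percentile of signal on that array, and differences are CKO minus WT.

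REST (the RE1-silencing transcription factor) is a zinc-finger protein that binds the RE1 element, a long DNA motif with a left and a right arm, and recruits the corepressors Sin3 and CoREST with their histone deacetylases and demethylases. It is best known for keeping genes of neurons, such as those of synapses and secretory granules, silent in cells that are not neurons. In the developing brain it is present in neural progenitors, and its level falls as neurons mature.

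The motif is shown first because the neuronal genes below were listed for their known control by REST. RefSeq promoter windows (250 bases before to 50 after a gene start, GRCm38.p6) were at hand for 76 of the 107 members of the REST-target and dense-core vesicle lists. The core of both arms, CAGCACC and GGACAG with any 2 bases between them, was searched on both strands and lay in the windows of 11 of 27025 genes (0.0407%), among them 1 list member, the motor neuron and pituitary factor Lhx3. The left arm alone, TCAGCACC, lay in 1.85% of all genes and in 8 of the 76 members. The right arm alone, GGACAGCG, lay in 1.48% of all genes and in 7 of the 76. The core overlaps both arms. The stretches below, written 5′ to 3′ on the strand of the gene, show the match in capitals with 10 bases on either side.
Lhx3, core, chr2:26208266-26208300, minus strand: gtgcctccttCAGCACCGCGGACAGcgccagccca
Scg2, left arm on the opposite strand, chr1:79440016-79440043, minus strand: ggagctgtccGGTGCTGAaacggcccga
Celsr3, left arm, chr9:108825909-108825936, plus strand: ccagctccgtTCAGCACCgtgggcagca
Syn1, left arm, chrX:20921132-20921159, minus strand: actgtcggatTCAGCACCgcggtcagag
Ptprn2, left arm on the opposite strand, chr12:116485723-116485750, plus strand: ggcgctgtccGGTGCTGAagctcggccg
Gria2, right arm on the opposite strand, chr3:80802990-80803017, minus strand: gggaccaaagCGCTGTCCgcggtgctaa
These genes differed by unlike amounts in CKO brain. The secretory granule gene Scg2 differed by 0.49 and the cadherin Celsr3 by 0.47, the AMPA receptor subunit Gria2 by 0.04, the synaptic vesicle gene Syn1 by -0.24 and the granule membrane gene Ptprn2 by -0.74. Celsr3 differed by 0.16 at its second probe. The CKO brain spot of Celsr3 and the WT brain spot of Ptprn2 were uneven, as defined below. Lhx3 was not well above background in WT brain, at -6.12 against -5.45 in CKO brain, and gave no bound above 0.

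Both brain arrays carried the markers of brain. The cortical factor Neurod6 stood at 2.99 in WT and 2.55 in CKO brain, against -6.95 in WT limb, where it was not well above background. Neuronal tubulin Tubb3 stood at 6.24 and 6.21, against -1.76 in WT limb. Spots well above background made up 64.5% on WT brain and 70.7% on CKO brain, so more dim genes were read in CKO. Probes printed 10 times on an array gave a median SD of 0.037 for the difference of a pair of matching spots, 0.025 for bright and 0.116 for dim probes, which covers technical error within an array and nothing between embryos.

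Rest itself, the targeted gene, was lower in CKO brain at each of its 3 probes. On chromosome 5 (mm9), the probe from 77709928 to 77709987 read -0.16 in WT and -3.73 in CKO brain, or 11.9-fold lower. The probe from 77711857 to 77711916 read -3.47 in WT and was not well above background in CKO, at least 6.60-fold lower. The probe from 77715162 to 77715221 has the highest mean level of the 3 and read -0.78 and -1.69, or 1.88-fold lower, which left 53.3% of the WT signal. The 27 measured genes of the REST corepressor complexes had a median difference of -0.09, and Rest was the single member past 1.5-fold.

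The brain transcriptome as a whole differed little between genotypes. Of 18946 genes well above background on at least 1 brain array, 17085 were so on both, and among those 96.0% differed by less than 1.5-fold, with quartiles of -0.10 and 0.07. The median difference was -0.01 over all genes compared. At least 2-fold higher in CKO were 259 genes (1.37%) and at least 2-fold lower 232 (1.22%), and at 1.5-fold these were 660 (3.48%) and 376 (1.98%). With the 17085 alone, 150 were higher (0.878%) and 88 lower (0.515%) at 2-fold, and 2.7% higher and 1.31% lower at 1.5-fold. Large differences belonged to dim genes. Among the 8139 genes that stood above 0 in WT brain and were measured on both arrays, 11 passed 2-fold upward and 4 downward, whereas 2.64% of genes between -4 and -2 were higher and 1.34% lower. Genes with a mean level above 2 had a median of -0.04. Another 1708 genes were well above background in CKO brain alone and 153 in WT brain alone, and for these only a bound is given, written "at least".

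**Figure D1:**
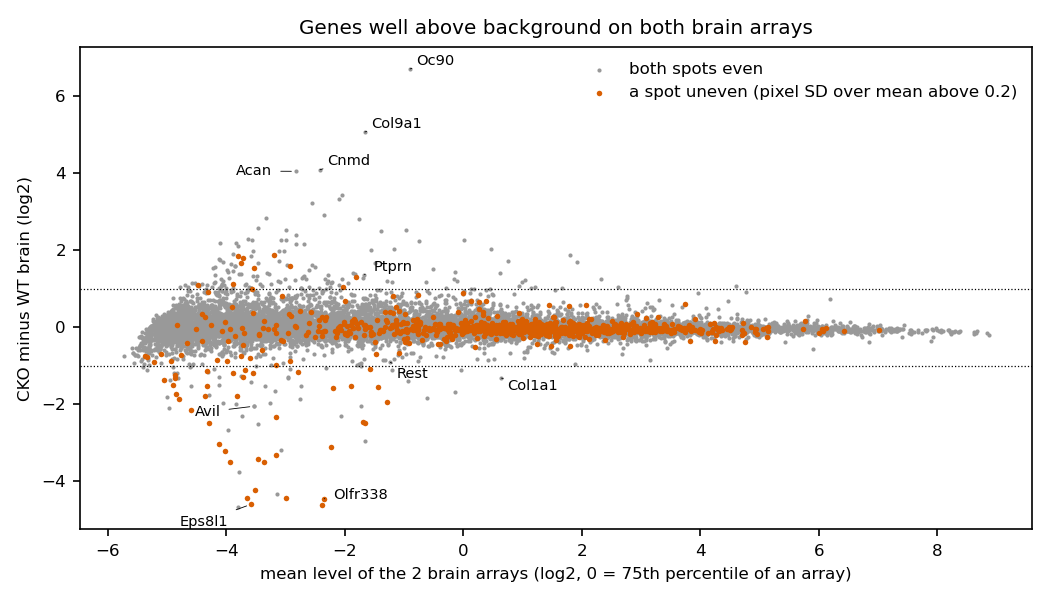
Difference between CKO and WT brain (log2, vertical axis) against the mean level of both brain arrays (log2, horizontal axis) for the 17085 genes measured on both, each point a gene and dotted lines at 2-fold. Genes with an uneven spot on either array, in orange, lie mostly along 0 but also make up much of the lower left, where Eps8l1 and Olfr338 fall, whereas the genes at the top, Oc90, Col9a1, Cnmd and Acan, have even spots.

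More than 50% of the genes at least 2-fold lower in CKO brain were read at spots of uneven brightness on the WT brain array. The scanner files give the spread of pixels within each spot, and the SD over the mean had a median of 0.134 on WT brain over all genes compared. A spot was called uneven above 0.2, which held for 3.57% of those genes on WT brain and 3.47% on CKO brain. Of the 232 lower genes, 126 (54.3%) had an uneven WT brain spot, and of the 111 at least 4-fold lower, 69 did (62.2%). Of the 259 higher genes, 47 (18.1%) had an uneven CKO brain spot. The actin regulator Eps8l1 read -1.29 in WT and -5.89 in CKO brain, with a pixel spread of 0.282 on the WT array against 0.140. The olfactory receptor Olfr338 read -0.12 and -4.58 with a WT spread of 0.355, and the fatty acid receptor Gpr84 -1.41 and -5.63 with a spread of 0.330. The part of spot unevenness in these differences was not tested. With every uneven spot left out, which was chosen after the data were seen, 212 genes were higher (1.15%) and 107 lower (0.582%) of 18372.

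A second probe of the same gene gave another reading. Past 2-fold upward, 28 genes had at least 1 other probe measured on both arrays, and downward 12 did. At least 1 such probe passed 1.5-fold the same way in 15 of the 28 and in 4 of the 12. Where a gene had several other probes, 1 passing probe was enough. Jak3 thus counted despite a probe at 0.44, and Prrx1 despite one at -0.31. The like share over all genes was not taken, so these counts have no reference. The spinocerebellar ataxia gene Atxn1 was 5.46-fold lower at a probe with a WT pixel spread of 0.289 and differed by -0.08 at the other. Kinesin Kif16b was 5.59-fold lower at its brighter probe, with a spread just past 0.2, and differed by -0.16 at the other. The immunoproteasome subunit Psmb8 was 7.77-fold lower at an even spot and differed by 0.32 at its second probe, so an even spot alone did not secure a second reading.

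Most neuronal genes differed by small amounts. Across 9 neuronal lists, 244 genes were compared, with 2 higher (0.820%, against 1.37% of all genes) and 9 lower (3.69%, against 1.22%) at 2-fold. Of the 95 genes listed as REST targets, 93 were on the array and 86 were measured on both brain arrays. Their median difference was 0.12, against -0.02 for all genes so measured, and 58 of the 86 were above 0 (67.4%), against 42.1% of all. A control list, hypoxia and glycolysis genes, had a like median of 0.12 with 78.8% above 0. Housekeeping genes had a median of -0.01 with 48.1% above 0. Past 2-fold stood 1 higher and 1 lower of the 86, where 0.878% of all genes measured on both arrays were higher and 0.515% lower, and 2 further members were lower as bounds. Among them Stmn2, Snap25 and Syp, which serve microtubules and synaptic vesicles, differed by 0.11, 0.20 and 0.21, while Tubb3 and L1cam, an adhesion molecule of axons, differed by -0.02 and 0.02. The brighter probe of Syn1 read 4.47 and 4.23 in brain but also 4.54 in WT limb, and its other probe, at -0.83 in WT and -0.59 in CKO brain, differed by 0.24, so the probes pointed opposite ways.

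Several secretory granule genes were higher. Dense-core vesicles store neuropeptides and hormones, and granins pack them. The granins Chga, Chgb, Scg2 and Scg3 were higher: Chga went from 3.43 in WT to 3.96 in CKO brain, Chgb from 3.84 to 4.35, Scg2 from -0.02 to 0.47 and Scg3 from 4.05 to 4.53, differences between 0.47 and 0.53. The granule membrane protein Ptprn stood apart, at -2.35 in WT and -0.98 in CKO brain, or 2.59-fold higher. The prohormone convertase Pcsk1, which cuts precursors into active peptides, read -2.57 and -1.60, or 1.97-fold higher, and was at least 1.32-fold higher at a dim second probe. Other granule genes did not share this. Cpe, which trims peptide ends, differed by -0.07, the chaperone Scg5 by -0.01, and Pcsk1n, an inhibitor of Pcsk1, by 0.06. The second convertase, Pcsk2, differed by -0.48, with an uneven CKO spot and -0.10 at its second probe, and the relative of Ptprn, Ptprn2, by -0.74 with an uneven WT spot. Of 21 members measured on both arrays, 14 were above 0, 2 were at least 1.5-fold higher and 1 lower (2.7% and 1.31% of all), and the median was 0.08. In limb, Chga read -3.67 in WT and 3.62 in CKO, which lies between the brain samples, and Ptprn -7.09 and -0.62, above both.

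**Figure D2:**
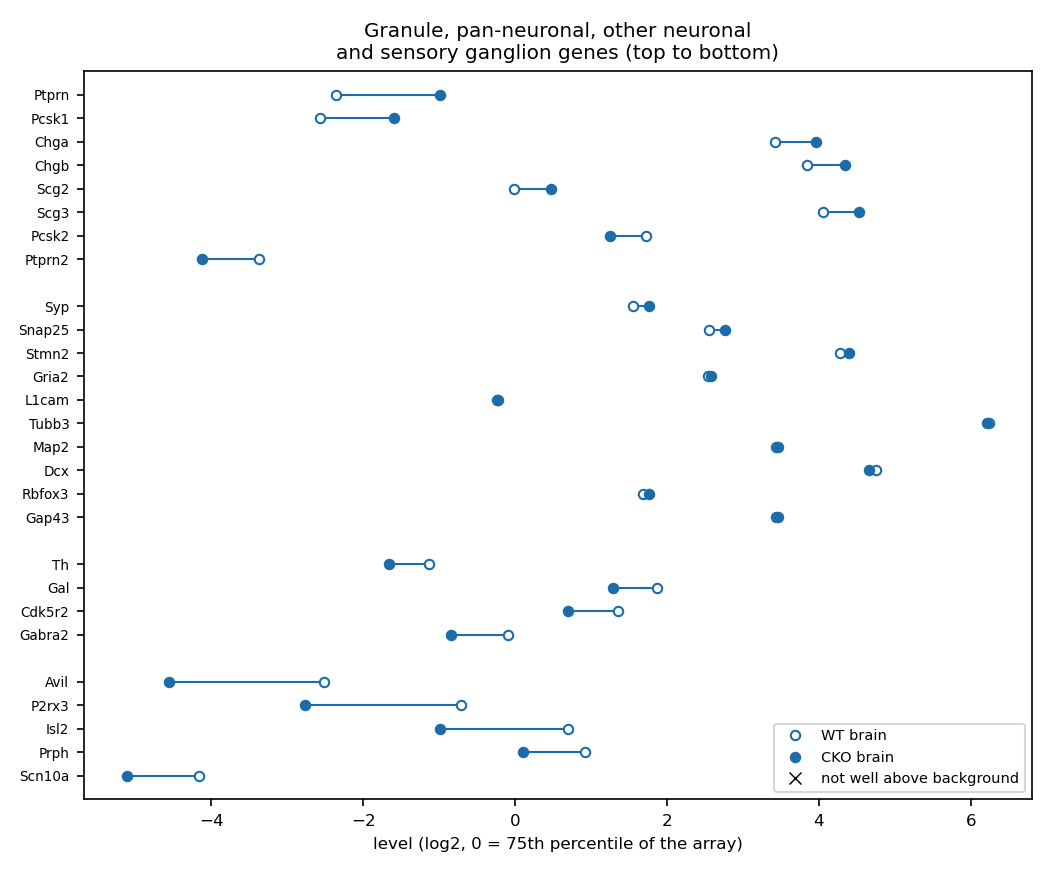
Levels (log2, horizontal axis) of granule, pan-neuronal, other neuronal and sensory ganglion genes on the WT brain array (open circles) and the CKO brain array (filled circles), 1 array each and no error bars. Ptprn, Pcsk1 and the granins shift to the right in CKO, pan-neuronal genes overlap, and Avil, P2rx3 and Isl2 shift far to the left.

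A few REST targets were lower. Tyrosine hydroxylase (Th), the first enzyme of dopamine synthesis, read -1.13 in WT and -1.67 in CKO brain, a difference of -0.53. The neuropeptide galanin (Gal) read 1.86 and 1.29, or -0.57, and Cdk5r2, an activator of the neuronal kinase Cdk5, read 1.35 and 0.70, or -0.65. Their spots were even. The lower values past 2-fold were dim in WT brain. Choline acetyltransferase (Chat) was at least 9.06-fold lower at a probe whose WT spot had a pixel spread of 0.414, and its second probe was not well above background on either array. The serotonin receptor Htr1a, at -4.22 and -5.53, had a WT spread of 0.268, and the opioid receptor Oprm1 was dim, at -5.18 in WT.

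Other neuronal groups stayed near 0. All 32 pan-neuronal markers were measured on both arrays, lay between -0.53 and 0.13 and had a median of -0.05. Doublecortin (Dcx) differed by -0.09, the microtubule protein Map2 by 0.03, the growth cone protein Gap43 by 0.03 and the neuronal nuclear antigen Rbfox3 by 0.08. The 35 measured genes of synaptic vesicle release had a median of 0.01, with the calcium sensor Syt1 at -0.08, the SNARE protein Vamp2 at -0.07 and complexins Cplx2 at 0.33 and Cplx1 at 0.55, the last with an uneven WT spot. Glutamatergic genes leaned lower, with 14 of 17 below 0, against 57.9% of all genes measured on both arrays, and a median of -0.13. Cortical factors led them, Neurod6 at -0.44, Tbr1 at -0.40 and Neurod2 at -0.38, whereas the vesicular transporter Slc17a6 differed by -0.03. GABAergic genes had a median of -0.09. Their synthesis enzymes Gad1 and Gad2 differed by -0.11 and -0.16, and the receptor subunit Gabra2 was lower at each of its 3 probes, by 0.65 to 0.76 on the log2 scale, at -0.10 in WT and -0.84 in CKO brain at the brightest. The median of monoaminergic and cholinergic genes was 0.07, with Phox2a, a factor of noradrenergic and cranial motor neurons, 1.76-fold higher, the serotonin transporter Slc6a4 at 0.26 and the dopamine transporter Slc6a3 at -0.34.

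Genes of peripheral sensory neurons were split. These neurons sit in cranial and spinal ganglia outside the brain. Of 25 listed genes, 20 were measured on both arrays, of which 5 were at least 2-fold lower and 1 higher (0.515% and 0.878% of all genes so measured). The actin-binding protein advillin (Avil) read -2.51 in WT and -4.56 in CKO brain, 4.15-fold lower, the ATP receptor P2rx3 -0.71 and -2.76 and the homeobox factor Isl2 0.70 and -0.99. The WT pixel spread was 0.109 for Avil, but 0.199 for P2rx3 and 0.193 for Isl2, just under the limit of 0.2 for an uneven spot. Each of these genes stood under its WT brain level in WT limb. The sodium channel Scn9a was at least 8.53-fold lower and Scn10a, a second channel of pain-sensing neurons, 1.93-fold lower at one probe with a second at -0.95. Peripherin (Prph), a filament of peripheral neurons, differed by -0.82. The receptor subunit Gfra3 differed by -1.93 with an uneven spot. Of the 50 genes at least 2-fold lower on both arrays with an even WT brain spot, 4 belonged to this list. Others of the list did not follow. The sensory factor Pou4f1 differed by -0.29, the receptors Ntrk2 and Ntrk3 by -0.01 and 0.17, the peptide Calca by 0.49 and the cranial placode gene Eya1 by 0.67. Summed over the list, signal was 15.3 in WT and 12.5 in CKO brain, where 1 is the 75th percentile of an array. The brightest member in brain was Ntrk2, at 2.61 in WT and 2.60 in CKO, so these sums say little of the rest of the list. In bulk tissue, fewer cells of a type and less RNA per cell cannot be told apart, and how much ganglion tissue each brain sample held was not tested.

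Neural progenitor markers were slightly lower as a group. Of 29 measured, 24 were below 0 (82.8%, against 57.9% of all genes measured on both arrays), the median was -0.21 and none passed 1.5-fold. Control lists had like shares below 0, 82.4% of cell cycle genes and 81.5% of REST corepressor genes, with medians of -0.03 and -0.09. The neurogenic factors Neurog2 and Eomes differed by -0.54 and -0.52, and the stem cell factors Sox2 and Pax6 by -0.30 and -0.21. Nestin (Nes) at 0.02 and the Notch target Hes5 at 0.09 did not share this. Glial markers had a median of -0.09 and 5 of 20 at least 1.5-fold higher, against 2.7% of all genes measured on both arrays. Brevican (Bcan), a proteoglycan of glial matrix, read 0.63 in WT and 1.65 in CKO brain, 2.03-fold higher, and S100b 0.90, Cspg4 0.82, Pdgfra 0.69 and Gjb6 0.67 on the difference scale, though other Cspg4 probes ranged from -0.42 to 0.87. The last 4 were brighter in WT limb than in either brain sample, whereas Bcan was not well above background there, at -6.60. In CKO limb Bcan read -3.10. Olig2 and Nfia, which drive glial fate, differed by -0.36 and -0.27.

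**Figure D3:**
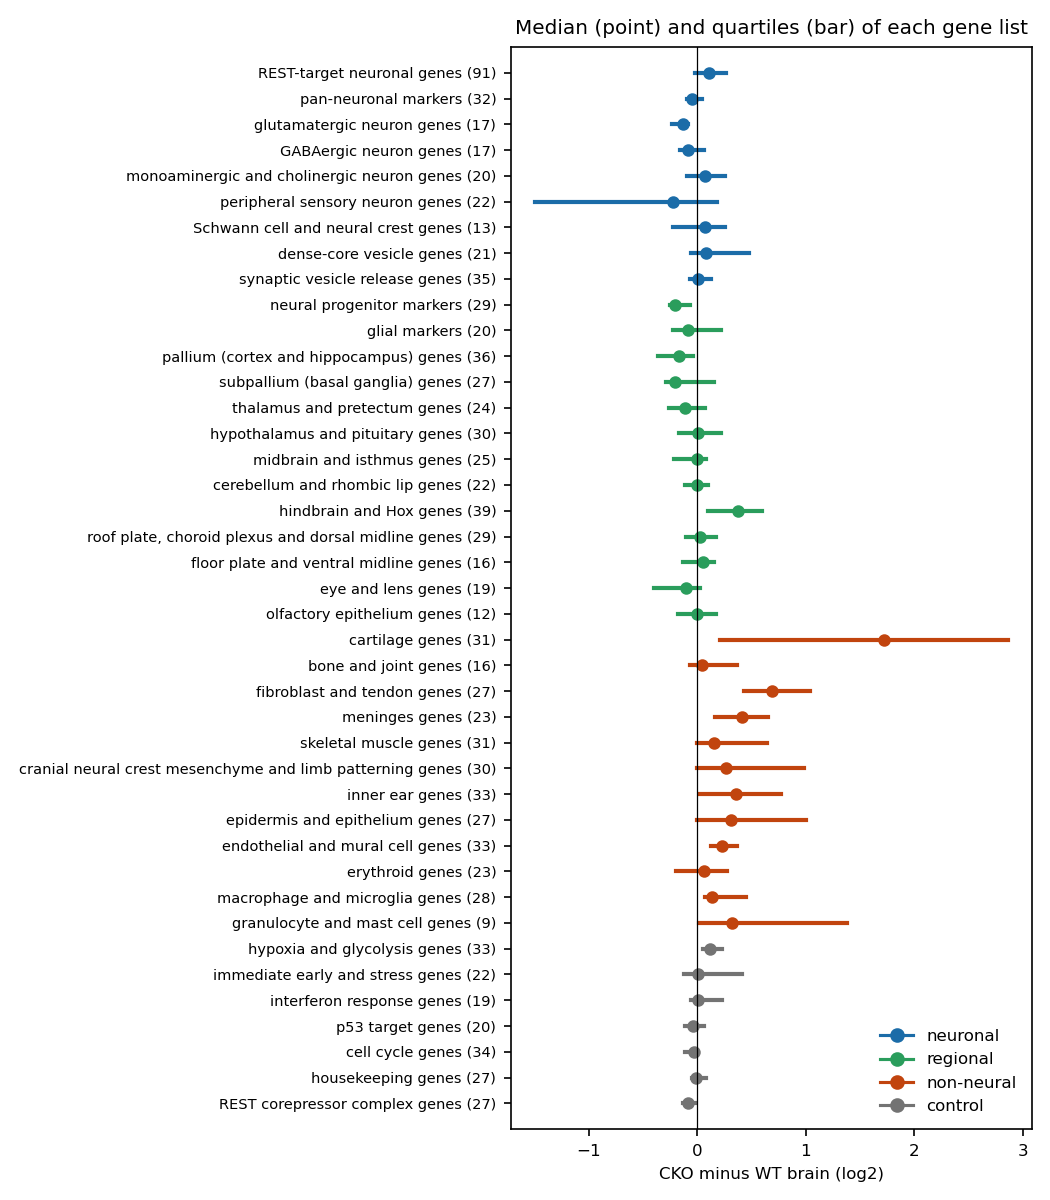
Difference between CKO and WT brain (log2, horizontal axis) for 41 gene lists, the point at the median and the bar from the lower to the upper quartile of the members compared, whose number stands in parentheses. Neuronal lists lie between -0.22 and 0.11, control lists close to 0, hindbrain and Hox genes have a median of 0.38, and cartilage genes reach 1.72.

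Regional brain genes showed a small tilt, with telencephalon lists below 0 and the hindbrain and Hox list above. Transcription factors that mark brain regions are set up before this stage and read out which regions a sample holds. Of 36 measured pallium genes, which pattern cortex and hippocampus, 29 were below 0, with a median of -0.17. That was 80.6%, against 57.9% of all genes measured on both arrays and 82.4% of cell cycle genes. Emx1 read 0.72 in WT and 0.29 in CKO brain, Lhx2 4.74 and 4.38 and the subcortical projection factor Fezf2 0.64 and 0.22. Wnt8b, of the cortical hem and hippocampus, differed by -0.61. Emx2 was lower at both probes, by 0.31 and 0.20. The widest exception was Crym, at 0.57. Subpallium genes had a median of -0.20 with 19 of 27 below 0 (70.4%). Among them were the interneuron factors Dlx1 at -0.25, Dlx2 at -0.28, Dlx5 at -0.29 and Gsx2 at -0.32. The dopamine receptor Drd2 went the other way, from -3.67 to -2.51, 2.24-fold higher, with a second probe at 0.41. In CKO limb Drd2 read -2.17 against -6.94 in WT limb.

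Behind the telencephalon the medians approached 0. Thalamus and pretectum genes had a median of -0.11, with Tcf7l2 at -0.33, Gbx2 at -0.30 and Lhx9 at -0.25. Hypothalamus and pituitary genes measured on both arrays had a median of 0.01 and were mixed: the retina and hypothalamus factor Rax differed by -0.45 and Nkx2-4 by -0.57, while Foxd1, Hmx2 and Hmx3 differed by 0.75, 0.61 and 0.58. The peptides Cartpt and Pmch, of feeding circuits, were at 0.49 and 0.41. Midbrain and isthmus genes had a median of -0.09 on both arrays, with Otx2 at -0.21 and the isthmus factor En2 at 0.08. Cerebellum and rhombic lip genes had a median of -0.03, with Barhl1 at -0.05, and the growth factor Gdf10, bright in limb at 0.97, was at 1.26.

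**Figure D4:**
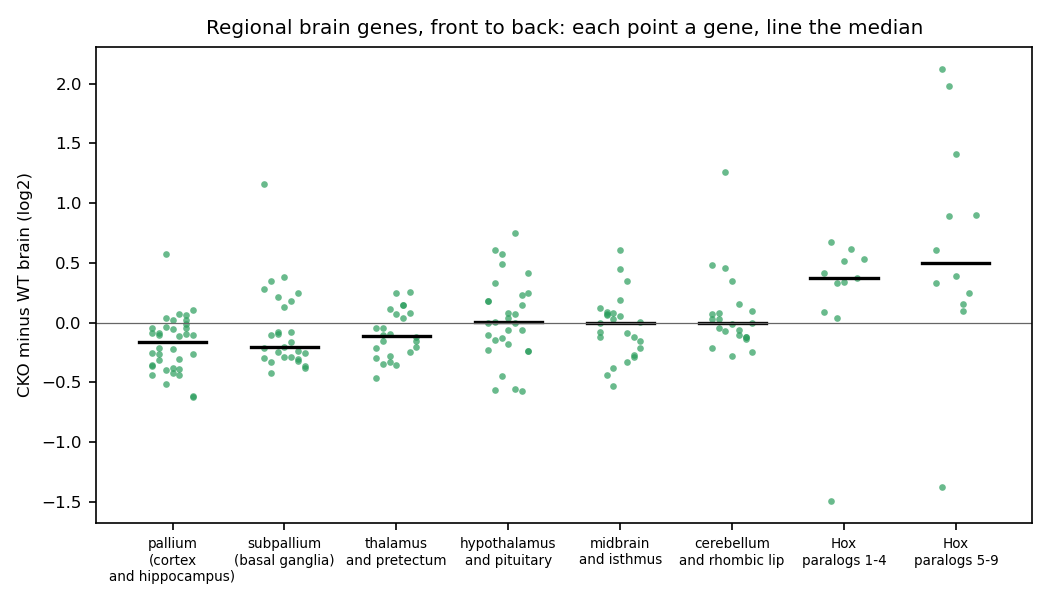
Difference between CKO and WT brain (log2, vertical axis) of regional brain genes, each point a gene compared and the black line the median, from the pallium on the left to posterior Hox genes on the right. Medians are -0.17 in the pallium, -0.20 in the subpallium and -0.11 in the thalamus, and near 0 in the hypothalamus, midbrain and cerebellum. Bounds are included, and without them the midbrain median is -0.09. Hox paralogs 1 to 4 and 5 to 9 have medians of 0.38 and 0.50, with Hoxd1 and Hoxa6 far below the other Hox genes.

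Hindbrain and Hox genes were higher. Hox genes mark the hindbrain and spinal cord in order along the body axis, low paralog numbers in front and high ones behind. Of 38 on the array, 23 were compared, and 21 of those were above 0, where 41.9% of all 18946 genes were above 0 and 53% below. Paralogs 1 to 4 had a median of 0.38 in 11 genes and paralogs 5 to 9 a median of 0.50 in 12. Paralogs 10 to 13, 11 genes of the tail and distal limb, were well above background on neither brain array. Hoxa2, the front-most in the hindbrain, read -0.97 in WT and -0.30 in CKO brain and Hoxb2 -0.30 and 0.31. Hoxb4 read -2.75 and -2.21, Hoxb7 -1.25 and -0.34 and Hoxb8 -0.17 and 0.43. The brightest, Hoxb5, read 1.74 and 1.90, a difference of 0.15, and Hoxb6 0.46 and 0.71, with a second probe at -0.03. Hoxa3 and Hoxc4 differed by 0.04 and 0.09.

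The Hox genes past 2-fold were dim in brain. Hoxa7 read -4.11 in WT and -2.12 in CKO brain, 3.96-fold higher, Hoxc6 -4.01 and -2.60, 2.66-fold higher, and Hoxb9 was at least 4.37-fold higher, with a second probe at least 2.21-fold higher. In WT limb these stood at 1.57, 0.04 and -1.16, above both brain samples. Hoxd1 and Hoxa6 were lower, by 2.82-fold and 2.60-fold, at -4.88 and -5.64 in CKO brain with even spots and no second measured probe. Beside Hox genes, the hindbrain factor Egr2 differed by 0.76 and the ventral factors Nkx6-1 and Nkx6-2 by 0.40 and 0.43. Many Hox genes also read higher in CKO limb than in WT limb. Hoxa2 read -3.50 in WT and -1.48 in CKO limb, Hoxa5 -2.24 and -0.80 and Hoxb5 -3.21 and -1.58. Hoxa9 and Hoxd9 read lower in CKO limb, at 0.80 and -1.52 against 1.14 and -1.15, and Hoxa3 was level. How far back each brain was cut is not recorded in the labels, and its part in the tilt was not tested.

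Midline, eye and nose genes varied without a common direction. Choroid plexus genes were near 0, transthyretin (Ttr) at -0.11, Folr1 at -0.06 and Kcne2 at 0.05, and among roof plate genes Msx2 was 2.03-fold and the channel Trpv4 2.23-fold higher, both brighter in WT limb. The Wnt agonist Rspo3 was lower by 0.84 on the log2 scale, and by 0.45 at its second probe. Floor plate genes had a median of 0.03, with Foxa2 at 0.01 and Shh at 0.16, and the hedgehog target Gli1 at 0.58. Among eye genes the lens crystallin Cryba1 at 0.04, the pigment granule gene Pmel 2.04-fold higher and the melanin enzyme Dct lower by 0.65, and by 0.54 at a second probe. Crygc, 11.4-fold lower, had an uneven WT spot with a spread of 0.219. Olfactory signalling genes Cnga2 and Adcy3 differed by 0.16 and 0.15, and the olfactory marker Omp was not well above background.

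Among the listed genes, those of tissues outside the nervous system held 54 of the 63 values at least 2-fold higher. Across 12 such lists, 54 of 298 genes compared were at least 2-fold higher (18.1%, against 1.37% of all genes) and 2 lower (0.671%, against 1.22%). Most genes past 2-fold belonged to no list: a list held 63 of 259 in the upward direction and 17 of 232 in the downward. In 13 regional lists 10 of 293 were higher and 3 lower, and in 7 control lists 0 of 177 were higher and 3 lower. Of the 150 genes at least 2-fold higher on both arrays, 79 (52.7%) were at least 2-fold brighter in WT limb than in CKO brain, against 14.4% of all genes measured on both. The dissection of each sample is not described in the labels, and what other tissue lay in a brain sample was not tested.

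Cartilage genes led. Of 35 listed, 23 were measured on both arrays, with 13 at least 2-fold higher (0.878% of all genes), 0 lower (0.515%) and a median of 1.71, and another 5 were at least 2-fold higher as bounds. The type IX collagens Col9a1, Col9a2 and Col9a3, which coat cartilage fibrils, read -4.20, 0.86 and -1.13 in WT brain and 0.87, 2.73 and 1.14 in CKO brain. In WT limb they stood at 0.45, 2.50 and 0.01, under the CKO brain level. The main cartilage collagen Col2a1 went from 1.06 to 2.76 and was 3.27-fold higher at one probe and 3.79-fold at the other. Col11a1 was 4.08-fold and 3.68-fold higher at separate probes. Aggrecan (Acan), the large proteoglycan, read -4.86 and -0.81, chondromodulin (Cnmd) -4.47 and -0.37 and the link protein Hapln1 was at least 15.8-fold higher. Mia, a secreted cartilage protein, was 3.30-fold, 3.17-fold and 2.96-fold higher at its 3 probes.

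Matrix genes and regulators of cartilage differed from each other. The master regulators Sox9, Sox5 and Sox6, all expressed in brain as well, differed by 0.02, -0.25 and -0.16, and the receptor Fgfr3 by -0.08. At its 2 other probes Sox9 differed by 0.20 and 0.37. Sox5 differed by -0.17 at its second probe, and other Sox6 probes ranged from -0.31 to -0.05. Matrilins Matn1 and Matn4, epiphycan (Epyc) and Comp were higher as bounds, by at least 7.50-fold, 8.04-fold, 24.2-fold and 3.67-fold. The genes of cartilage maturing toward bone, Col10a1 and Ihh, were well above background on neither array, and Runx2, which drives bone formation, gave no bound above 0. Signal summed over the list was 93.8 in WT and 115.5 in CKO brain, against 72.6 in WT limb. The brightest member in brain was the neural proteoglycan Ncan, at 6.11 in WT and 6.01 in CKO, so these sums say little of the rest of the list.

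**Figure D5:**
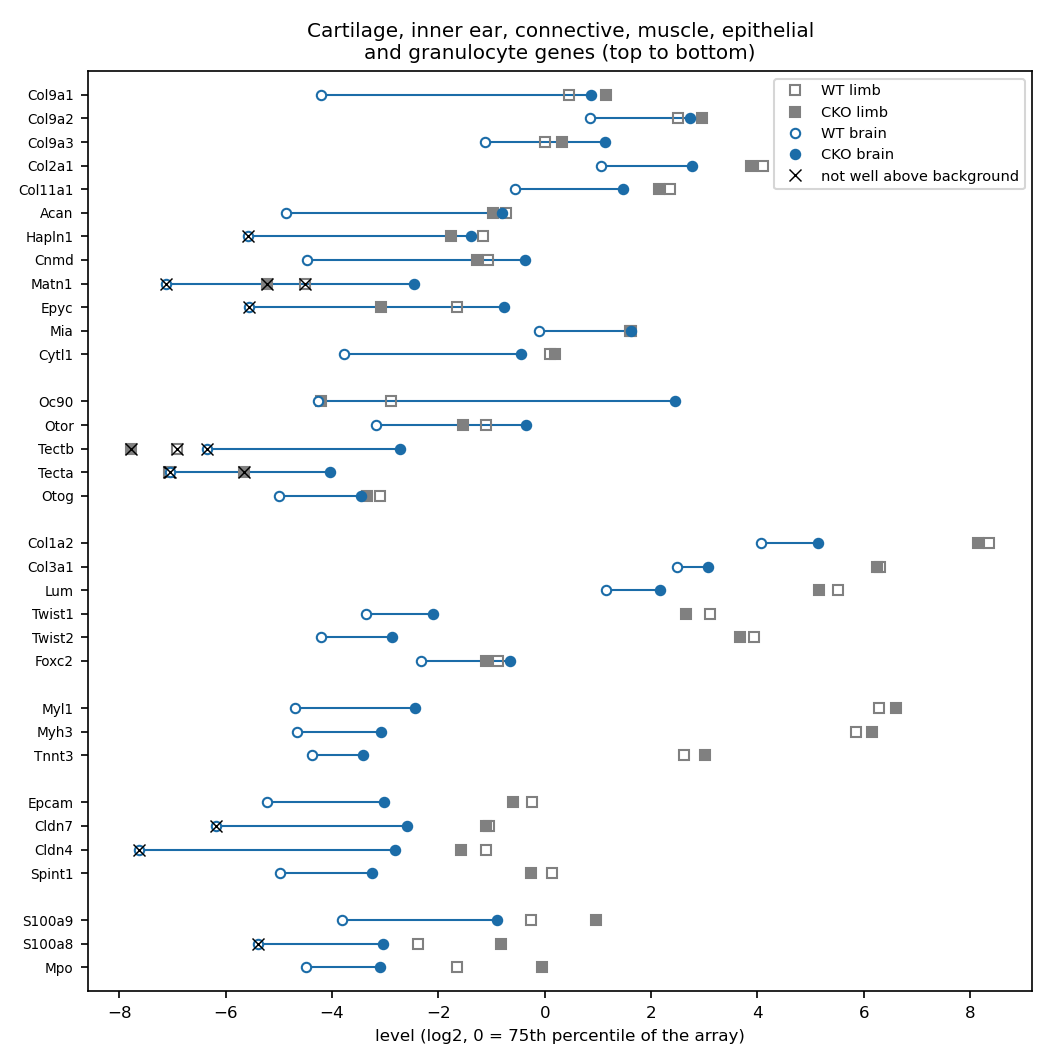
Levels (log2, horizontal axis) of cartilage, inner ear, connective tissue, muscle, epithelial and granulocyte genes on the 4 arrays (circles brain, squares limb, open WT, filled CKO), a cross marking values not well above background. CKO brain lies to the right of WT brain for each gene shown. Among the cartilage genes shown, it comes near or past the limb level except for Col2a1 and Col11a1. Muscle genes stay under the limb level, and Oc90 in CKO brain passes both limb samples. Not all listed cartilage genes are shown, and Comp and Fmod, left out here, stayed under the WT limb level.

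Fibroblast and tendon genes were higher by less. On both arrays 25 were measured, with a median of 0.69. At least 2-fold higher were 8 (0.878% of all genes) and lower 1 (0.515%). The mesenchymal factors Twist1, Twist2 and Foxc2 read -3.36, -4.21 and -2.33 in WT and -2.10, -2.88 and -0.66 in CKO brain. The collagen Col12a1 differed by 1.98, lumican (Lum) by 1.03 and the tendon factor Scx by 0.62, and decorin (Dcn) by 0.26. The chains of type I collagen parted: Col1a2 read 4.07 and 5.14 and was 2.10-fold higher, whereas Col1a1 read 1.30 and -0.02 and was lower at all 3 of its probes, by 2.50-fold, 2.16-fold and 2.48-fold. Col1a1 also read 6.52 in WT limb and 4.44 in CKO limb. Col3a1 differed by 0.59 and 0.45 at even probes and was at least 2.89-fold lower at a further dim probe with a WT spread of 0.229. With the mean of its probes, Col3a1 turned to -0.16.

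Meninges, the sheets of connective tissue that cover the brain, carried genes with the same tilt. Of 23 measured genes 21 were above 0 (91.3%, against 42.1% of all), with a median of 0.41. The meningeal factor Foxc1 differed by 0.88, retinoic acid enzyme Aldh1a2 by 0.41 and the transporter Slc6a13, a gene of meninges at -1.97 in WT limb, by 0.21. Vitronectin (Vtn) read 2.37 in WT and 3.17 in CKO brain, and the transporter Slc22a6 differed by 0.63, and by 0.36 at a second probe. Neither was well above background in WT limb, at -5.77 and -5.04. In CKO limb Vtn read -2.42 and Slc22a6 -4.80, so the Vtn level differed between genotypes in limb as well. Islr, a connective tissue gene, was 2.33-fold higher with a second probe at 1.21. The growth factor Igf2 differed by 0.91.

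Mesenchyme of cranial neural crest and limb had 7 of 24 genes measured on both arrays at least 2-fold higher (0.878% of all) and 0 lower (0.515%), with a median of 0.39. The factors Tbx15, Meox2, Snai2, Snai1 and Tbx1 differed by 1.59, 1.43, 1.42, 1.21 and 1.20, Tbx15 at an uneven spot with a second probe at 1.30. Six2 was at least 5.24-fold higher. Prrx1, of limb and face mesenchyme, was 2.03-fold higher, 2.07-fold and 1.79-fold at other bright probes, and lower by 0.31 on the log2 scale at a dim one. Skeletal factor Nkx3-2 was at least 79.2-fold lower at a probe with a WT spread of 0.277, and its second probe was not well above background. Limb identity factors Tbx4 and Tbx5 and the distal Hoxa13 and Hoxd13 were well above background on neither brain array.

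For skeletal muscle, 24 genes measured on both arrays had a median of 0.12, with 2 at least 2-fold higher (0.878% of all) and 0 lower (0.515%). The light chain Myl1 read -4.70 in WT and -2.44 in CKO brain and the embryonic myosin Myh3 -4.65 and -3.07, against 6.29 and 5.85 in WT limb. Fast troponins Tnnt3 and Tnnc2 differed by 0.94 and 0.83. Myh8 at -0.25 and Myh7 at 0.07 did not follow, and the muscle master factors Myod1 and Myf5 were not well above background. Summed muscle signal was 9.70 in WT and 10.4 in CKO brain, against 498 in WT limb.

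Among genes measured on both brain arrays, the widest difference belonged to a gene of the inner ear. The ear develops beside the hindbrain. Oc90, the main protein of otoconia, the crystals that sense gravity, read -4.25 in WT and 2.46 in CKO brain, against -2.89 in WT limb and -4.21 in CKO limb. Otor read -3.17 and -0.35. The tectorins Tectb and Tecta, of the tectorial membrane, were at least 6.26-fold and 2.50-fold higher, and otogelin (Otog) differed by 1.55. Other ear genes were near 0: cochlin (Coch) at 0.32, the hair cell myosins Myo7a at 0.10 and Myo6 at -0.22, and the hair cell factor Pou4f3 at -0.65. The listed ear genes Oc90, Otor, Tectb and Otog have 1 measured probe each. Of 26 measured on both arrays, 6 were at least 2-fold higher and 0 lower, with a median of 0.34, where all genes gave 0.878% and 0.515%. Otor is also a member of the cartilage list and is counted among its higher genes, so the 2 lists are not separate sets.

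Epithelial genes divided by kind. Genes of simple epithelium were higher: Epcam read -5.22 and -3.02, claudin Cldn7 was at least 6.84-fold higher, Cldn4 at least 5.84-fold and Cldn6 at least 2.82-fold, the protease inhibitor Spint1 differed by 1.74 and keratin Krt8 by 0.89. Genes of skin did not: Krt5 differed by 0.19, Krt14 by -0.06, Krt10 by -0.11 and the desmosome protein Dsp by -0.64 at one probe and 0.49 at the other. On both arrays 19 genes of this list were measured, 3 at least 2-fold higher and 0 lower, beside 0.878% and 0.515% of all genes.

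Blood vessel genes were slightly higher. Of 31 measured on both arrays, 27 were above 0 (87.1%, against 42.1% of all), 0 passed 2-fold and the median was 0.23. Cadherin Cdh5 differed by 0.36, the receptor Kdr by 0.20 and Pecam1 by 0.18, and the transcription factor Erg by 0.84. Genes of the blood-brain barrier, Cldn5 and Mfsd2a, were at 0.03 and 0.07.

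Red cell genes went both ways, with a median of 0.05. Embryonic globins Hbb-y, Hbb-bh1 and Hba-x differed by 0.75, 0.71 and 0.57, Hbb-bh1 by 0.19 at its second probe. The adult alpha chain differed by -0.09 at the Hba-a1 probe, whose reading may include its near-identical gene copy. The haem enzyme Alas2, the anion exchanger Slc4a1 and the haemoglobin chaperone Ahsp differed by -0.41, -0.45 and -0.66. The erythropoietin receptor Epor read -2.53 and -1.14, 2.62-fold higher. In limb Epor read -0.80 in WT and 0.66 in CKO.

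Macrophage and microglia genes were above 0 for 24 of 27 (42.1% of all genes were), with a median of 0.14. The complement genes C1qa, C1qb and C1qc differed by 0.63, 0.60 and 0.60, but the defining genes Csf1r, Cx3cr1 and Aif1 by 0.07, 0.09 and 0.15, and the microglial receptor P2ry12 by -0.58. Neutrophil proteins stood out: S100a9 read -3.81 in WT and -0.90 in CKO brain, 7.50-fold higher, S100a8 was at least 4.99-fold higher and the peroxidase Mpo 2.61-fold. In limb S100a9 read -0.26 in WT and 0.96 in CKO. Of 22 listed granulocyte and mast cell genes 6 were measured on both brain arrays, with a median of 0.26. At least 2-fold higher were 2 and lower 0 (0.878% and 0.515% of all genes), and 1 was at least 1.5-fold lower, at -0.96. Elane and Ngp, of granulocyte precursors, were well above background on neither brain array.

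Control lists had medians near 0. Cell cycle genes had a median of -0.03, with 28 of 34 below 0, and housekeeping genes of -0.01. For hypoxia and glycolysis the median was 0.12, with 26 of 33 above 0, against 42.1% of all. Interferon, p53 target and stress genes had medians between -0.05 and 0.06 on both arrays, and the heat shock gene Hspa1b was 2.89-fold lower at an even spot, where a near-identical copy may share the signal. The largest difference in the control lists was that of Tnfrsf10b, a death receptor and p53 target, at -1.90 in WT and -5.66 in CKO brain with even spots and no second measured probe.

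Outside the lists, and chosen after their values were seen, the matrix gene Smoc2 read -4.76 in WT and -1.91 in CKO brain, the mineralisation inhibitor Mgp -1.87 and 0.39 and the protease-like Capn6 -2.64 and -0.15, each brighter in WT limb, at 1.67, 3.82 and 4.20. The collagen Col5a3 read -3.77 and -0.32 in brain and -0.61 and 2.07 in WT and CKO limb. Meltf, an iron-binding membrane protein, read -4.16 and -0.94, above the -3.04 of WT limb. Tff3, a mucosal peptide, read -4.22 and -1.95 and was not well above background in limb. By the rule of a second probe, the imprinted RNA H19 was 2.40-fold higher with a second probe at 1.18, the potassium channel subunit Kcne3 2.29-fold with 1.13, the acyltransferase Mboat2 2.25-fold with 0.89, the interferon-induced gene Shfl 2.16-fold with 1.22, the kinase Jak3 2.04-fold with 1.01 and 0.44 at others and the angiogenesis inhibitor Serpinf1 2.05-fold with 0.69.

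Lower genes with a like reading at a second probe were few. Pirt, a membrane protein of sensory neurons, read -2.87 in WT and -4.30 in CKO brain, with a second probe at -0.88. Frem2, a basement membrane protein, was just past 2-fold lower and differed by -0.78 at its second probe, the signalling regulator Rgs7bp differed by -0.88 and passed 1.5-fold at its second, and Prr15 differed by -0.88 and -0.75 and the fatty acid transporter Cd36 by -0.78 and -0.64. Cited4, a transcription cofactor, differed by -1.17 with an uneven WT spot and by -0.63 at its second probe.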

How the data were processed

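Total RNA was labelled with Cy3 and hybridised to single-colour Agilent arrays, all 4 on 1 slide, per the labels' protocols and the file headers. The authors deposited scanner output, made with Feature Extraction 9.5.3.1 according to the submitters' processing notes, in which each intensity is background-subtracted and detrended within its array, per the file headers. Control spots, outlier flags and saturated spots were left out, log2 was taken, each array's 75th percentile subtracted and the spots of a probe averaged. Each gene was read at the probe brightest on average across the 4 arrays, and compared when well above background on at least 1 brain array. Otherwise dark values were bounded by the array's lowest signal well above background. The text names genes by this rule: Rest, list members marked as defining, up to 8 members past 1.5-fold and 3 bounds per list, and 15 genes in each direction with a second probe at 1.5-fold; others were chosen after their values were seen, and some genes the rule names are not reported here. Of 41174 probes, 26933 were named by accession, 5570 by symbol and 894 by synonym. Probe positions are on mm9.

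The comparison, the 41 lists and their members were chosen with earlier results of these data known. The lists singled out in the limits, and the spread used to judge whether a value moved, were set after list values were seen. Calculations used Python 3.11.15, numpy 2.4.6, pandas 2.3.3, R 4.3.3 and limma 3.58.1 (normexp, quantile), and the pipeline was tested on simulated data. Another 9 settings were tried. The series table the authors deposited holds the same intensity values and differed by at most 0.0071 log2 from the scanner files. The raw mean and background intensities that the authors deposited served normexp alone. The number of arrays limits the precision.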

Additional observations from a re-analysis of the deposited data

Results flagged for a closer look

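The homeobox gene Hoxd1 moved in opposite directions in the 2 tissues, with a CKO minus WT difference of -1.49 log2 in brain and 1.42 in limb. The otoconial gene Oc90 did likewise, at 6.71 in brain and -1.32 in limb. Each tissue has 1 array per genotype, so the difference between tissues was not tested for either gene.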

How the results depend on the processing

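The count of genes at least 2-fold higher in CKO brain was 259. It was 150 when both brain arrays had to be well above background, 87 with normexp background correction and 439 with no detection filter. For genes at least 2-fold lower in CKO brain the count, 232, was 88, 113 and 661 under the same settings in that order and 107 with uneven spots left out, a setting added after the data were seen. Cartilage genes kept their direction, with a median of 1.72 that was 1.05 with normexp, 1.37 with the mean of all probes and 1.38 with no filter. Hindbrain and Hox genes went from 0.38 to 0.25 with normexp and 0.26 with no filter. The cause was not tested. Col3a1, at 0.59, was -0.16 with the mean of all its probes, the single named gene to reverse. The technical spread used here was 0.104, a median over probes printed 10 times of their unpaired SD across both brain arrays. It is wider than the SD of matching spots given above. Among the named genes, normexp moved 137 values past the technical spread and left 139 within it, the mean of all probes moved 48, quantile normalization 14 and leaving out uneven spots 4. Under the deposited series table and both other percentile or median scalings, no list median moved past the technical spread. Dim spots limit the bounds. No paired analysis was possible because each group has 1 array and nothing in the labels ties a WT sample to a CKO sample.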
